A study of Sus scrofa with 9 samples.

Results

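Transcripts of 9 genes that govern clotting and clot breakdown at the vessel wall were sought in porcine heart muscle by gene symbol, namely F3, THBD, PROCR, TFPI, VWF, PLAT, PLAU, PLAUR and THBS1. Of these, 8 were among the 25149 genes of the table, and PLAUR, the urokinase receptor, was not listed and was left out. All 8 listed genes passed the filter on low values, at least 1 TPM in at least 3 hearts. TPM is a read count divided by the length of the gene and then brought to the same sum in every heart, so levels of different genes can be compared.

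The hearts came from 9 female Yorkshire pigs aged 4 to 6 months, in 3 groups of 3. All donors were heparinised and underwent 15 min of warm ischemia to model donation after circulatory death. In the NRP+SCS 2h group (pigs 24, 25 and 29) the heart was reperfused in the body by normothermic regional perfusion (NRP) for 60 min and then kept in static cold storage (SCS) at 4 °C for 2 h. In the NRP+HOPE 24h group (pigs 27, 28 and 30) the same NRP was followed by 24 h of hypothermic oxygenated perfusion (HOPE) at 8 °C. In the No NRP+HOPE 2h group (pigs 31, 33 and 34) NRP was omitted and HOPE lasted 2 h. Every heart was then reanimated for 2 h by normothermic machine perfusion (NMP) on a circuit primed with heparinised donor blood, and 1 biopsy of the apex was taken at the end. There was no biopsy before storage and no unperfused heart in the comparison, and the HOPE perfusate, unlike the SCS solution, contained donor red cells and heparin. NRP+SCS 2h differs from NRP+HOPE 24h in both the method and the length of storage, and from No NRP+HOPE 2h in both NRP and the method of storage. NRP+HOPE 24h differs from No NRP+HOPE 2h in both NRP and the length of storage. In each comparison the factors cannot be told apart.

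Healthy endothelium keeps blood fluid. Tissue factor (F3) starts clotting when it meets factor VIIa, and tissue factor pathway inhibitor (TFPI) blocks that step. Thrombomodulin (THBD) binds thrombin and, with the endothelial protein C receptor (PROCR), turns it towards activating the anticoagulant protein C. Von Willebrand factor (VWF) and thrombospondin 1 (THBS1) are adhesive proteins that engage platelets, while tissue-type (PLAT) and urokinase-type (PLAU) plasminogen activators generate plasmin, which dissolves fibrin.

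The labels give the cell type as cardiomyocytes, whereas the biopsies were whole tissue. All 7 listed cardiomyocyte markers were above 0, with a summed level of 23043 to 43841 TPM over the 9 hearts, and all 12 listed endothelial markers were above 0 in at least some hearts, with a sum of 648 to 1365 TPM. In such bulk tissue, fewer cells of a type and less RNA per cell cannot be told apart. The 13 mitochondrially encoded genes took 38.2% to 55.3% of TPM. A median-of-ratios factor, the median of a heart's levels relative to the 9-heart average, was lowest in pigs 27 (0.737) and 31 (0.781) and highest in pig 30 (1.34).

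Over the 9 hearts the mean level was highest for THBS1 (804 TPM), followed by PLAT (211 TPM), THBD (199 TPM), PLAU (170.1 TPM), VWF (43.7 TPM), F3 (13.7 TPM), PROCR (8.60 TPM) and TFPI (0.720 TPM). The order of PLAT, THBD and PLAU was not firm, since PLAT exceeded THBD in 3 of 9 hearts and THBD exceeded PLAU in 6 of 9. F3 exceeded PROCR in 7 of 9 hearts, and every other neighbouring pair kept its order in 9 of 9. PLAU varied most between hearts, with an SD of 0.95 on the log2(TPM + 1) scale, larger than that of 95.4% of the genes tested. THBS1 varied least, with an SD of 0.38, against a median of 0.43 over all genes tested.

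**Figure D1:**
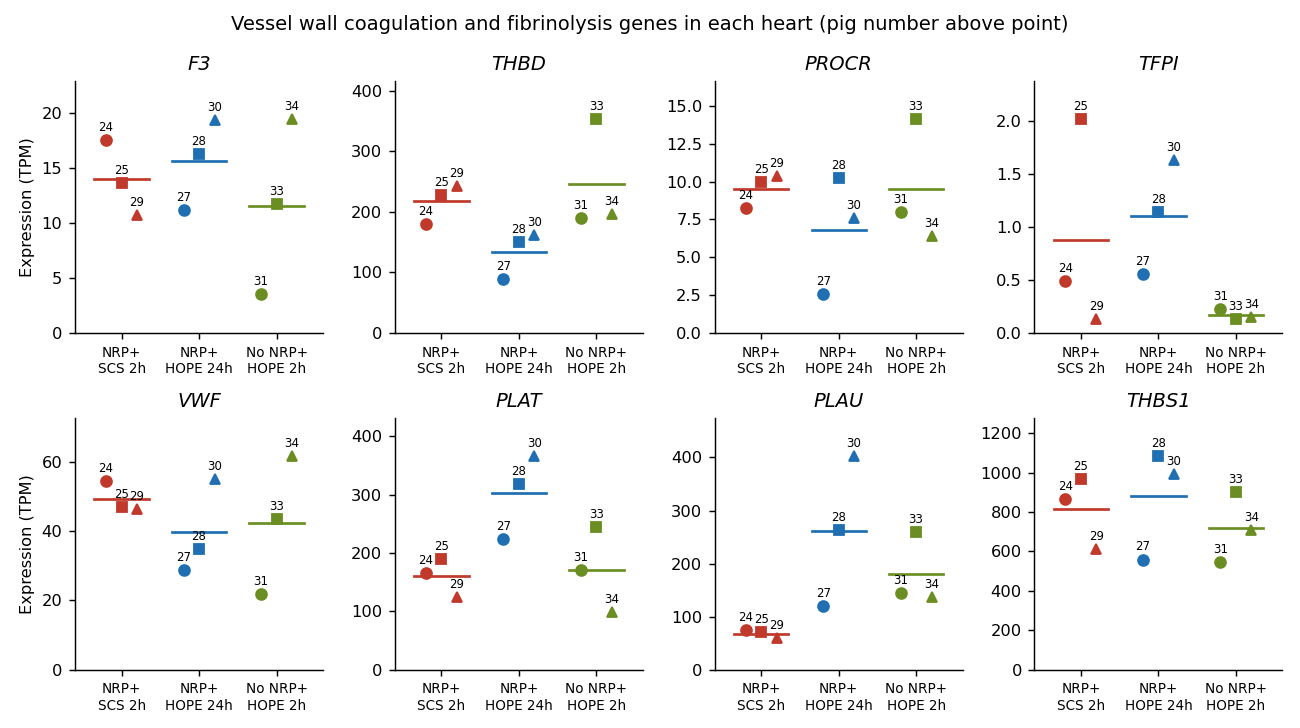
Expression in TPM (linear axis from 0) of the 8 listed genes in each heart, with the pig number beside each point and a line at the mean of the 3 hearts of a group. PLAU lay between 59.0 and 74.1 TPM in the NRP+SCS 2h hearts and at 121 TPM or above in the 6 other hearts.

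On the log2(TPM + 1) scale, PLAU differed most of the 8 genes from NRP+SCS 2h in both HOPE groups. It stood at 74.1, 70.9 and 59.0 TPM in the NRP+SCS 2h hearts, at 121, 263 and 402 TPM in the NRP+HOPE 24h hearts, and at 144, 259.6 and 138 TPM in the No NRP+HOPE 2h hearts. Every HOPE heart was thus above every SCS heart, and the HOPE groups overlapped each other. The mean was 262 ± 141 TPM (SD, n = 3) after NRP+HOPE 24h and 68.0 ± 7.97 TPM (SD, n = 3) after NRP+SCS 2h, a 3.85-fold ratio. The log2 fold change was 1.77 (SE 0.39, 95% confidence interval 0.93 to 2.61), with an unadjusted p of 0.000491 and an adjusted p of 0.206 in limma. In the No NRP+HOPE 2h hearts the mean was 180.4 ± 68.6 TPM (SD, n = 3), a 2.65-fold ratio to NRP+SCS 2h. The log2 fold change was 1.34 (SE 0.39, interval 0.50 to 2.18; limma unadjusted p 0.00422, adjusted p 0.414). Neither difference passed the threshold of an adjusted p under 0.05 over the 11782 genes tested. Between the HOPE groups the log2 difference was 0.44 (interval -0.40 to 1.27; limma adjusted p 0.957). With each heart left out in turn it ranged from 0.0452 to 0.91.

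Without pig 27, the NRP+HOPE 24h heart with the lowest PLAU, the PLAU difference of NRP+HOPE 24h from NRP+SCS 2h was called (limma adjusted p 0.0403), as were 12 genes or 0.102% of all genes tested, against 3 with every heart. With weights that lower the influence of more variable hearts, PLAU was called in both comparisons with NRP+SCS 2h (limma adjusted p 0.0299 for NRP+HOPE 24h and 0.0221 for No NRP+HOPE 2h). That setting raised the calls over all genes from 3 to 60 (0.509%) and from 6 to 94 (0.798%). In all other alternatives tried it was not called.

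PLAT, the activator released by endothelium, was at 166, 189.6 and 125 TPM after NRP+SCS 2h, at 225, 318 and 366 TPM after NRP+HOPE 24h, and at 170.1, 245 and 98.5 TPM after No NRP+HOPE 2h. The NRP+HOPE 24h hearts lay above all NRP+SCS 2h hearts, whereas the No NRP+HOPE 2h hearts spanned the SCS range. The mean was 303 ± 72.0 TPM (SD, n = 3) against 160.1 ± 32.9 TPM (SD, n = 3), a 1.89-fold ratio, with a log2 fold change of 0.91 (SE 0.33, interval 0.19 to 1.62; limma unadjusted p 0.0168, adjusted p 0.893). NRP+HOPE 24h exceeded No NRP+HOPE 2h by 0.89 on the log2 scale (limma unadjusted p 0.0191, adjusted p 0.700), with overlapping hearts, and by 0.54 without pig 34. The difference of No NRP+HOPE 2h from NRP+SCS 2h was 0.02 (interval -0.69 to 0.74).

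The ratio of PLAU to PLAT within a heart, a measure added after the levels were seen, was formed as (TPM + 1) over (TPM + 1), so at these levels it moves little with the total to which TPM is scaled. It was 0.450, 0.377 and 0.477 in the NRP+SCS 2h hearts, 0.540, 0.827 and 1.10 in the NRP+HOPE 24h hearts, and 0.847, 1.06 and 1.39 in the No NRP+HOPE 2h hearts. All SCS hearts were below all HOPE hearts. The log2 ratio was higher by 0.87 after NRP+HOPE 24h and by 1.32 after No NRP+HOPE 2h than after NRP+SCS 2h. Each had an exact two-sided permutation p of 0.1, the smallest that 3 hearts against 3 can give.

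**Figure D2:**
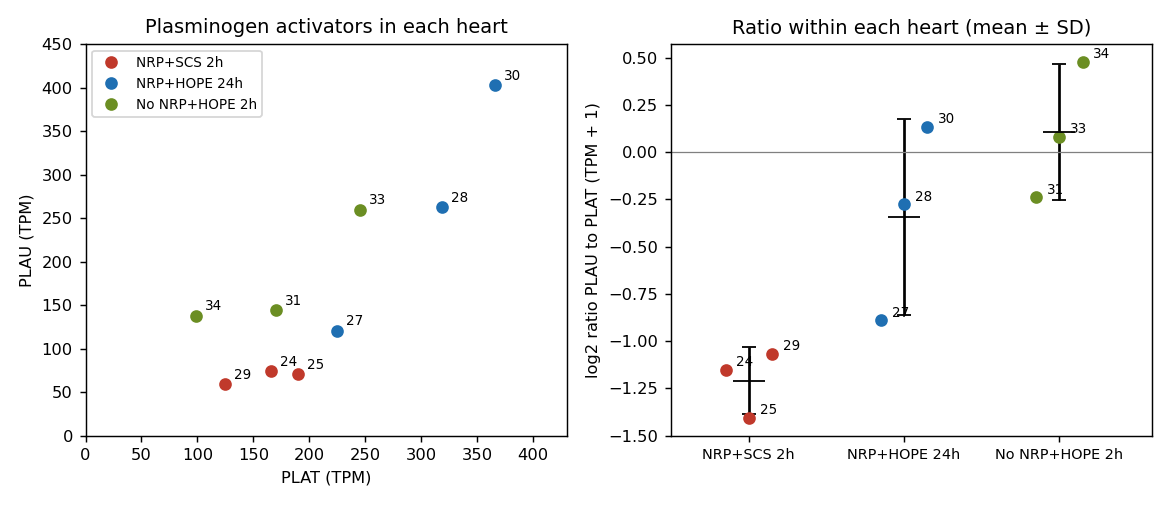
Left, PLAU against PLAT in TPM for each heart, labelled by pig number; right, the log2 ratio of PLAU to PLAT in each heart with the mean ± SD of 3 hearts per group. The NRP+SCS 2h ratios lie below those of the 6 HOPE hearts, and pig 27 is the HOPE heart nearest to them.

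Red cell transcripts were examined beside PLAU. HBB, a haemoglobin chain, was at 70.8, 132 and 78.4 TPM after NRP+SCS 2h, at 73.5, 339 and 419.8 TPM after NRP+HOPE 24h, and at 220.2, 368 and 220.1 TPM after No NRP+HOPE 2h. Its log2 fold changes from NRP+SCS 2h were 1.27 with overlapping hearts (limma unadjusted p 0.0284, adjusted p 0.943) and 1.52 without overlap (limma unadjusted p 0.0111, adjusted p 0.516), and neither passed the threshold. The summed erythroid markers (2 of 7 listed) ranged from 71.4 to 133 TPM, 73.9 to 425 TPM and 222 to 372 TPM in these groups. Within groups, HBB varied more than PLAU (SD 0.87 against 0.59 on the log2(TPM + 1) scale). The log2 ratio of PLAU to HBB differed from NRP+SCS 2h by 0.50 for NRP+HOPE 24h (exact permutation p 0.4) and by -0.19 for No NRP+HOPE 2h (exact permutation p 0.7), with overlapping hearts. Between the HOPE groups it did not overlap and was higher by 0.69 after NRP+HOPE 24h (exact permutation p 0.1). Without pig 27 these differences of NRP+HOPE 24h were 0.20 from NRP+SCS 2h and 0.38 from No NRP+HOPE 2h. This ratio was also added after the values were seen. In pig 27, HBB was within the range of the SCS hearts and PLAU, at 121 TPM, was above it. The part of the red cells in the PLAU result was not tested. Macrophage and monocyte markers (6 of 11 listed) summed to 81.5 to 194 TPM, 66.1 to 149 TPM and 117 to 223 TPM, with overlap. Neutrophil markers (5 of 7 listed, CSF3R at 0 in every heart) summed to 2.98 to 14.4 TPM, 1.53 to 7.85 TPM and 0.127 to 3.59 TPM. Of the 2 tested, S100A9, a calcium-binding protein of neutrophils and monocytes, differed from NRP+SCS 2h by -1.35 after NRP+HOPE 24h (limma unadjusted p 0.0117, adjusted p 0.792) and by -2.17 after No NRP+HOPE 2h, without overlap (limma unadjusted p 0.000389, adjusted p 0.140). Between the HOPE groups it was higher by 0.82 after NRP+HOPE 24h, without overlap (limma adjusted p 0.891). The other, MMP9, a protease of neutrophil granules, differed from NRP+SCS 2h by 0.58 and -0.08 in the same order. The part of these cells in the PLAU result was not tested. Platelet markers (4 of 8 listed) summed to 5.08 to 6.64 TPM, 4.34 to 8.76 TPM and 6.53 to 9.34 TPM.

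THBD, the thrombin receptor of the anticoagulant arm, was at 181, 228 and 242 TPM after NRP+SCS 2h, at 88.7, 151 and 162 TPM after NRP+HOPE 24h, and at 190.2, 352 and 197 TPM after No NRP+HOPE 2h. The gene name table pairs THBD with another identifier, so this row rests on the symbol the authors deposited. The NRP+HOPE 24h hearts were the lowest 3 of the 9 and did not overlap either other group. Their mean was 134 ± 39.5 TPM (SD, n = 3), against 217 ± 32.5 TPM (SD, n = 3) after NRP+SCS 2h and 247 ± 91.8 TPM (SD, n = 3) after No NRP+HOPE 2h. The log2 fold change was -0.73 against NRP+SCS 2h (SE 0.31, interval -1.40 to -0.06; limma unadjusted p 0.0352, adjusted p 0.954). Against No NRP+HOPE 2h it was -0.86 (SE 0.31, interval -1.54 to -0.19; limma unadjusted p 0.0155, adjusted p 0.670). Neither passed the threshold, and the values were -0.46 without pig 27 and, against No NRP+HOPE 2h, -0.58 without pig 33. Smooth muscle and pericyte markers (6 of 7 listed, MYH11 at 0 in every heart) summed to 268 to 387 TPM after NRP+SCS 2h, 194 to 314 TPM after NRP+HOPE 24h and 373 to 442 TPM after No NRP+HOPE 2h. The sums of the HOPE groups did not overlap. Of the 5 tested, 4 were lower and 1, CSPG4, was higher (0.44) after NRP+HOPE 24h than after No NRP+HOPE 2h. ACTA2, the actin of smooth muscle, differed between the HOPE groups by -1.28 (limma unadjusted p 0.00316, adjusted p 0.402) and NOTCH3, a receptor of mural cells, by -1.05 (limma unadjusted p 0.0243, adjusted p 0.751). Fibroblast markers (4 of 6 listed) summed to 390 to 507 TPM, 423 to 560.4 TPM and 526 to 655 TPM. The part of these cells in the THBD result was not tested.

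PROCR, which presents protein C to the thrombin and thrombomodulin complex, was at 8.22, 9.96 and 10.4 TPM after NRP+SCS 2h, at 2.55, 10.2 and 7.59 TPM after NRP+HOPE 24h, and at 7.99, 14.1 and 6.42 TPM after No NRP+HOPE 2h. The groups overlapped, and pig 27 was the lowest heart for PROCR and for THBD. The log2 fold change of NRP+HOPE 24h from NRP+SCS 2h was -0.58 (interval -1.48 to 0.31; limma adjusted p 0.993) and was -0.10 without pig 27. The log2 ratio of THBD to PROCR differed from NRP+SCS 2h by -0.15 after NRP+HOPE 24h (exact permutation p 0.7) and by 0.20 after No NRP+HOPE 2h (exact permutation p 0.2).

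F3, the initiator of clotting, was at 17.6, 13.7 and 10.7 TPM after NRP+SCS 2h, at 11.2, 16.2 and 19.4 TPM after NRP+HOPE 24h, and at 3.56, 11.7 and 19.4 TPM after No NRP+HOPE 2h. The groups overlapped, and the log2 fold changes from NRP+SCS 2h were 0.14 (interval -0.85 to 1.13) and -0.48 (interval -1.47 to 0.51). Its inhibitor TFPI was low throughout, at 0.488, 2.02 and 0.133 TPM, at 0.557, 1.14 and 1.63 TPM, and at 0.229, 0.133 and 0.149 TPM in the same order of groups. TFPI did not overlap between NRP+HOPE 24h and No NRP+HOPE 2h, with a log2 fold change of 0.82 (interval -0.04 to 1.67; limma adjusted p 0.846). That value was 2.07 with a pseudocount of 0.1, as TFPI lies near the pseudocount of 1. The depth of the libraries is unknown, so the precision of such low values cannot be given. The log2 ratio of F3 to TFPI differed from NRP+SCS 2h by -0.12 and 0.08 (exact permutation p 0.9 for each), and by -0.61 and 0.76 with a pseudocount of 0.1.

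VWF, stored in endothelial cells, was at 54.3, 47.1 and 46.4 TPM after NRP+SCS 2h, at 28.8, 34.9 and 55.1 TPM after NRP+HOPE 24h, and at 21.7, 43.5 and 61.6 TPM after No NRP+HOPE 2h. The SCS hearts were close together and both HOPE groups spanned them. The row carries the symbol VWF in the deposited table, but the gene name table pairs its identifier with ANO2, the gene next to VWF in RefSeq (Sscrofa11.1), so its identity is uncertain. The log2 fold changes from NRP+SCS 2h were -0.36 (interval -1.15 to 0.43) and -0.33 (interval -1.12 to 0.46). THBS1 was at 865, 966 and 612 TPM, at 559, 1083 and 994 TPM, and at 546, 903 and 708 TPM in the same order of groups. Its log2 fold changes were 0.08 (interval -0.56 to 0.72) and -0.18 (interval -0.82 to 0.46), and the groups overlapped.

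**Figure D3:**
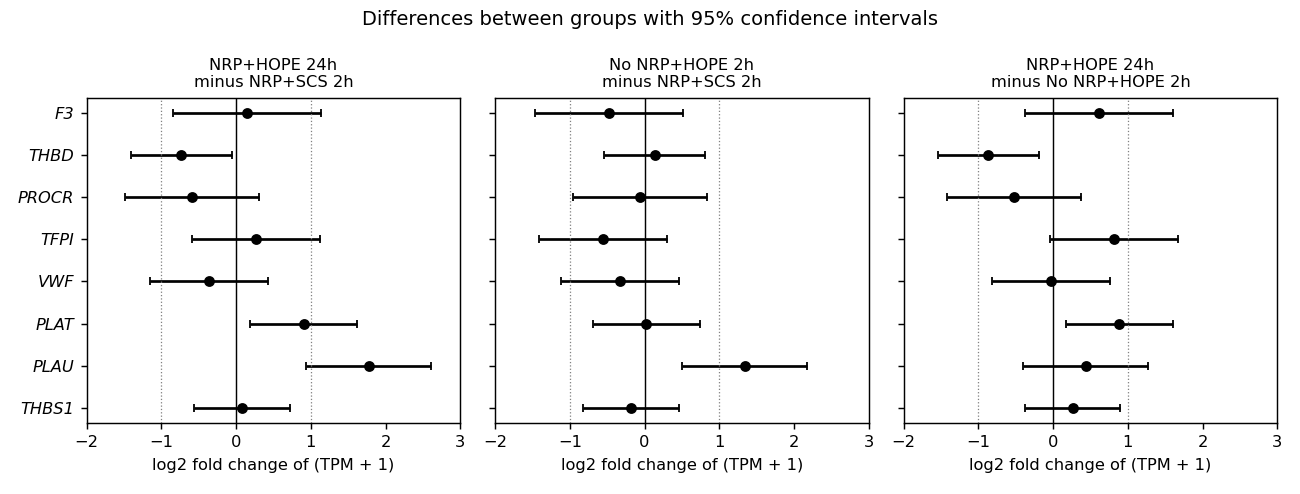
Log2 fold changes of (TPM + 1) for the 8 genes in the 3 comparisons, as points with 95% confidence intervals from limma; dotted lines mark 1 and -1. The PLAU intervals of 0.93 to 2.61 and 0.50 to 2.18 lie above 0 in both comparisons with NRP+SCS 2h, but no gene passed the adjusted threshold.

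A gene was called where its adjusted p was under 0.05 and its log2 fold change was above 1 or below -1. By limma, 0 of the 8 genes were called in NRP+HOPE 24h against NRP+SCS 2h, where 0.0255% of all genes tested were. At an unadjusted p under 0.05 there were 3 (THBD, PLAT and PLAU), against 4.97% of all genes, and the same 3 had hearts that did not overlap, against 9.82%. The count at an unadjusted p under 0.05 was 1 without pig 29, where 467 of all genes were at that level, against 585 with every heart. When No NRP+HOPE 2h was compared with NRP+SCS 2h, 0 were called (0.0509% of all genes). PLAU was the 1 gene at an unadjusted p under 0.05 (7.22%) and the 1 without overlap (14.7%). Without pig 34, 2 were at that p, beside 827 of all genes. When NRP+HOPE 24h was compared with No NRP+HOPE 2h, 0 were called (0.0509%). There 2 genes, THBD and PLAT, were at an unadjusted p under 0.05 (6.01%), and 2, THBD and TFPI, did not overlap (7.48%). Without pig 30 or without pig 33, 1 was at that p, beside 1118 and 701 of all genes. For any difference among the 3 groups, the moderated F-test of limma gave 0 at an adjusted p under 0.05 (0.102%) and 3 at an unadjusted p under 0.05 (THBD, PLAT and PLAU; 6.26%). PLAU was the 1 gene of the 8 with both HOPE groups above every NRP+SCS 2h heart, which held for 79 genes or 0.671% of those tested. The comparisons with NRP+SCS 2h share those 3 hearts. The median log2 fold change of the 8 genes was 0.11, -0.12 and 0.35 in the 3 comparisons, beside -0.12, -0.07 and -0.03 over all genes tested.

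Endothelial markers were compared because THBD, PROCR, VWF, TFPI and PLAT are made by endothelium. After NRP+HOPE 24h, all 12 endothelial markers tested had means on the log2 scale below those of NRP+SCS 2h (median log2 fold change -0.47), with 0 at an unadjusted p under 0.05. The NRP+HOPE 24h hearts were uneven, with marker sums of 648 TPM in pig 27, 851 TPM in pig 28 and 1365 TPM in pig 30. The NRP+SCS 2h hearts had 1133 to 1349 TPM. Over all genes the median in the comparison of NRP+HOPE 24h with NRP+SCS 2h was -0.12 on the same scale. Median-of-ratios scaling brings that median near 0 by construction (0.00), and the endothelial median is not given on that scale. The hearts of TEK (-0.68) and CLEC14A (-0.66) did not overlap. After No NRP+HOPE 2h, 10 of the 12 had lower means than NRP+SCS 2h and 2 had higher (median -0.28, beside -0.07 over all genes). The hearts of ENG (-0.62) did not overlap there, where those of 14.7% of all genes did not. Relative to the mean of these markers in the same heart, THBD differed from NRP+SCS 2h by -0.30 after NRP+HOPE 24h, with overlapping hearts (exact permutation p 0.3). With each heart left out in turn it differed by -0.47 to -0.17. From No NRP+HOPE 2h it differed by -0.70, without overlap (exact permutation p 0.1). PLAT was higher after NRP+HOPE 24h by 1.34 than after NRP+SCS 2h and by 1.05 than after No NRP+HOPE 2h, without overlap (exact permutation p 0.1 for each), the latter being 0.65 without pig 34. VWF differed from NRP+SCS 2h by 0.08 and -0.06 in the HOPE groups (exact permutation p 0.6 and 0.9), and PROCR by -0.15 and 0.20 (exact permutation p 0.8 and 0.6). TFPI was higher by 0.99 after NRP+HOPE 24h than after No NRP+HOPE 2h (exact permutation p 0.1), and by 2.25 with a pseudocount of 0.1. From NRP+SCS 2h it differed by 0.70 and -0.29 in the HOPE groups, with overlap (exact permutation p 0.4 and 0.6), and by 1.21 and -1.04 with that pseudocount.

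**Figure D4:**
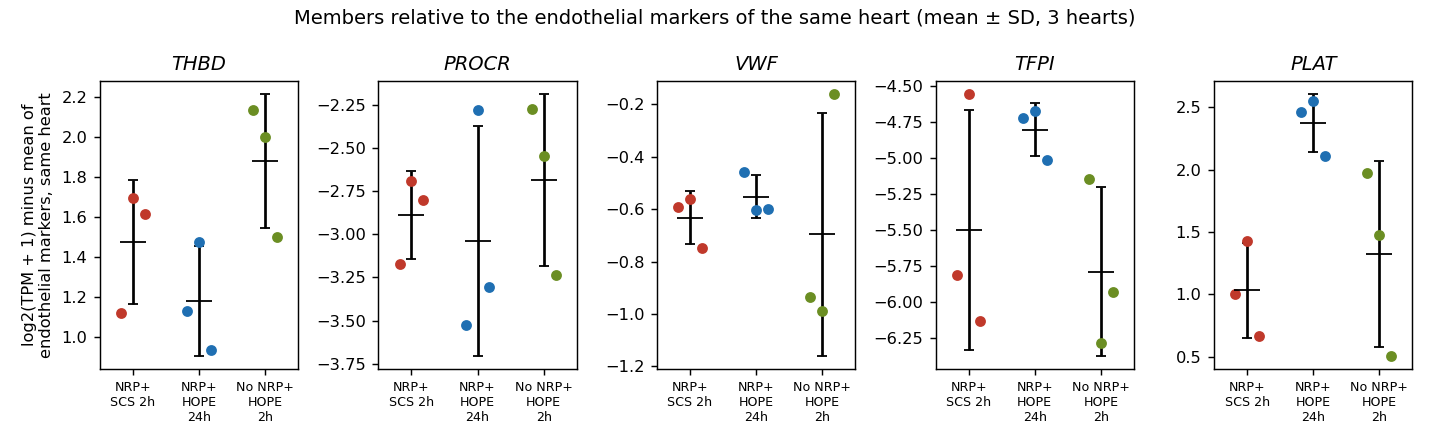
The log2(TPM + 1) of 5 genes minus the mean of the endothelial markers of the same heart, as 1 point per heart with the mean ± SD of 3 hearts; each panel has its own axis. PLAT in NRP+HOPE 24h lies above both other groups, by 1.34 and 1.05, while VWF differs from NRP+SCS 2h by 0.08 and -0.06.

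Of 59 other genes written for 5 lists of the same pathways, 47 were in the table and 28 were tested. None was called in any of the 3 comparisons (0 of 28 in each, by limma). Against NRP+SCS 2h, 15 were higher and 13 lower after NRP+HOPE 24h, of which 2 higher and 1 lower were at an unadjusted p under 0.05, where 4.97% of all genes were. After No NRP+HOPE 2h, 17 were higher and 11 lower, of which 2 higher and 0 lower were at that level (7.22% of all genes). Between the HOPE groups, 2 higher and 2 lower were (6.01% of all genes). The median log2 fold changes were 0.09, 0.13 and -0.02 in the same order.

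Among anticoagulant proteins (5 of 14 tested), TFPI2, a matrix-associated inhibitor of plasmin and other proteases, was at 108, 68.7 and 88.2 TPM after NRP+SCS 2h. It was at 136, 382 and 196 TPM after NRP+HOPE 24h and at 177, 333 and 146 TPM after No NRP+HOPE 2h. As for PLAU, every HOPE heart was above every SCS heart. The log2 fold changes were 1.31 (SE 0.39; limma unadjusted p 0.00466, adjusted p 0.584) and 1.23 (SE 0.39; limma unadjusted p 0.00700, adjusted p 0.483). The log2 ratio of PLAU to TFPI2, added after the values were seen, differed from NRP+SCS 2h by 0.46 and 0.11 (exact permutation p 0.6 for each). The other genes with the largest differences in that list were HPSE (heparanase; -0.22 and -0.83) and GGCX (the vitamin K-dependent carboxylase; 0.19 and 0.26), as log2 fold changes from NRP+SCS 2h.

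In the fibrinolysis list (7 of 12 tested), SERPINB2, an inhibitor of PLAU, was at 229.5, 305 and 159.8 TPM after NRP+SCS 2h, at 169, 585 and 484 TPM after NRP+HOPE 24h, and at 108, 117 and 293 TPM after No NRP+HOPE 2h. The groups overlapped, with log2 fold changes from NRP+SCS 2h of 0.70 (limma adjusted p 0.993) and -0.53 (limma adjusted p 0.879). Between the HOPE groups SERPINB2 differed by 1.23 (interval 0.22 to 2.23; limma unadjusted p 0.0207, adjusted p 0.734). S100A10, a plasminogen-binding partner of annexin A2, differed by 0.41 and 0.42, the plasminogen receptor PLGRKT by 0.37 and 0.39, and the protease inhibitor A2M by -0.07 and 0.78.

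Of the coagulation factors (4 of 16 tested), F2, the prothrombin gene, had means of 1.21, 2.19 and 0.638 TPM in the 3 groups, near the pseudocount of 1. Between the HOPE groups F2 was higher by 0.97 after NRP+HOPE 24h (limma unadjusted p 0.0163, adjusted p 0.671). Its hearts did not overlap there, where those of 7.48% of all genes did not. F13A1 differed from NRP+SCS 2h by 0.28 and -0.32, and F8 by -0.18 and 0.23 on the log2 scale. Of the 4 protease-activated receptors, which proteases of the clotting cascade cleave, thrombin for some of them, F2R and F2RL2 were not listed. F2RL1 and F2RL3 were tested, at means of 0.575 and 0.309 TPM after NRP+SCS 2h. Their log2 fold changes were 0.04 and 0.69 after NRP+HOPE 24h and 0.57 and 0.39 after No NRP+HOPE 2h. The F2RL1 hearts of No NRP+HOPE 2h lay above those of NRP+SCS 2h, a comparison in which 14.7% of all genes did not overlap.

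Among genes of platelet control by the vessel wall (10 of 13 tested), NOS3, which makes nitric oxide in endothelium, was at 74.5, 50.9 and 54.7 TPM after NRP+SCS 2h, at 23.1, 27.3 and 48.2 TPM after NRP+HOPE 24h, and at 48.9, 68.1 and 42.2 TPM after No NRP+HOPE 2h. The NRP+HOPE 24h hearts were below all SCS hearts, with a log2 fold change of -0.90 (SE 0.33; limma unadjusted p 0.0152, adjusted p 0.849). The prostacyclin receptor PTGIR differed by 0.79 in that comparison (limma unadjusted p 0.0459, adjusted p 0.991) and THBS3 by -0.47. NT5E, the ectonucleotidase that makes adenosine, differed by 0.77 after No NRP+HOPE 2h (limma unadjusted p 0.0367, adjusted p 0.661), and THBS4 by -0.63. MMRN2, an endothelial matrix protein, ranged from 0 to 26.3 TPM between hearts, and its difference of 0.71 had an interval of -1.60 to 3.02.

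**Figure D5:**
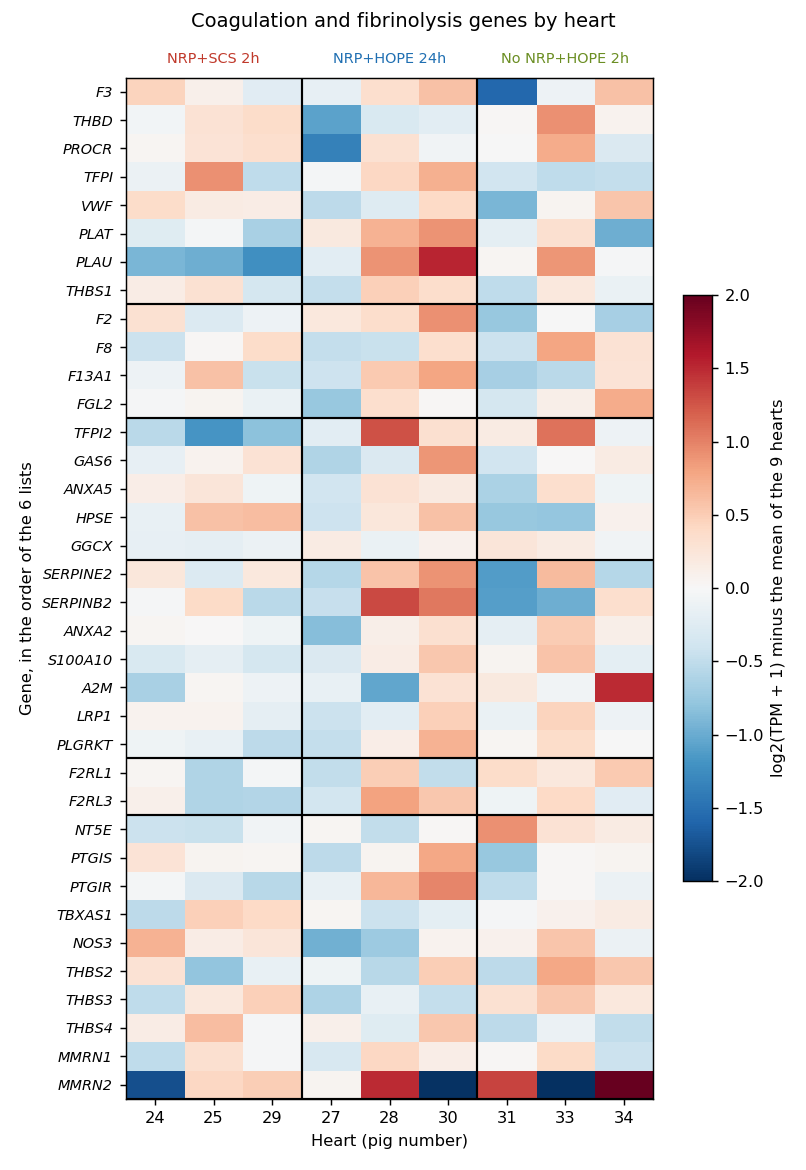
Heat map of log2(TPM + 1) minus the mean of the 9 hearts for the 8 genes (top block) and the 28 tested genes of the other 5 lists, with hearts in columns by group; colours stop at 2 and -2, which MMRN2 reaches. PLAU and TFPI2 are below their means in all 3 NRP+SCS 2h hearts.

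Across the 9 hearts, 28 pairs of the 8 genes were correlated, and by permutation 0 had an adjusted p under 0.05 and 4 an unadjusted p under 0.05. The points share the scaling of TPM and the differences between groups. The pair with the highest r was THBD with PROCR (Pearson r 0.876, permutation p 0.00503, adjusted p 0.0848; Spearman rho 0.633, permutation p 0.0760, adjusted p 0.504). Its r was 0.248 without pigs 27 and 33, on which it rests, and was 0.908 with group means removed. F3 with VWF had r 0.837 (permutation p 0.00606, adjusted p 0.0848) and rho 0.833 (permutation p 0.00827, adjusted p 0.231). It was 0.506 without pigs 31 and 34. PLAT with PLAU had r 0.720 (permutation p 0.0295, adjusted p 0.207) and rho 0.717 (permutation p 0.0369, adjusted p 0.504), and r was 0.844 without pigs 30 and 34. F3 with THBS1 had r 0.656 (permutation p 0.0296, adjusted p 0.207) and rho 0.600 (permutation p 0.0968, adjusted p 0.504). Its r was 0.722 without pigs 31 and 34, and 0.333 with median-of-ratios scaling.

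The genes most like each member were taken from the 3 with the highest Pearson r over the 9 hearts among 4890 named genes with a mean of at least 5 TPM, and are given as a description. For PLAU they were TIPARP (r 0.916) and SPHK1 (0.914). TIPARP was at 5.76 to 9.26 TPM in the NRP+SCS 2h hearts and at 14.7 TPM or more in the HOPE hearts, to 77.7 TPM in pig 28. For PLAT they were FOSL1 (0.964), TXNRD1 (0.963) and PKIG (0.926). For THBD they were CCAR1 (0.900), VAMP8 (0.878) and GLUL (0.876), and for PROCR GNAI1 (0.890), THBD (0.876) and DDX20 (0.867). For F3 they were TGFBR3 (0.986) and SRP54 (0.943), and for VWF SF1 (0.985), PI4KA (0.981) and SCAMP2 (0.980). For TFPI they were UQCRC2 (0.917), RIC8B (0.886) and RF00086 (0.883), and for THBS1 RIOX1 (0.963), MCRS1 (0.951) and MYC (0.943).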

How the data were processed

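RNA from 1 apex biopsy per heart (9 hearts, 3 groups of 3 taken from the sample labels) was sequenced by the authors, who trimmed reads with Trimmomatic 0.36, mapped them with STAR 2.5.2b and counted them with featureCounts (Subread 1.5.2), per the submitters' processing notes and the methods. The authors deposited TPM values, which sum to 1000000 in each heart. The gene lengths and the genome release behind them are not given in the sources used here. Depth is therefore unknown, and precision rests on the spread between hearts. A further 9 sample columns matched no labelled sample and were not used.

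Because TPM are not counts, limma 3.58.1 (R 4.3.3) was fitted to log2(TPM + 1) with a mean for each group, the 9 hearts in a single model, and eBayes with a trend, in place of the authors' DESeq2 on counts. Fold changes are on this scale, which understates the change of low genes. Genes below 1 TPM in more than 6 hearts were dropped, and two-sided p-values of the remaining 11782 were adjusted together by Benjamini-Hochberg. The code was tested on simulated data. Ratios within a heart and differences over endothelial markers were compared by exact two-sided permutation tests (scipy 1.17.1), whose smallest p is 0.1. A planned ratio of PLAU to PLAUR was not made. Ratios of PLAU to PLAT, TFPI2 and HBB were added after values were seen.

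The members and gene lists were chosen with earlier results of these data known. The text names all listed members, up to 3 genes per list with the largest absolute log2 fold change in each comparison with NRP+SCS 2h, the protease-activated receptors, the marker lists and the 3 genes most like each member. HBB was chosen after its values were seen. Each heart is a separate animal, given by its pig number. Of the 8 listed members, 6 had an identifier that the gene name table paired with the same symbol (THBD is paired there with another identifier, and the identifier of VWF with ANO2, so both rest on the symbols the authors deposited), and the symbols of all 9 were in RefSeq. Some items that these rules cover are not reported here. No sequences or coordinates are given.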

Additional observations from a re-analysis of the deposited data

How the results depend on the processing

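Alternatives were another pseudocount (0.1), other filters, median-of-ratios and quantile scaling, mitochondrial genes left out, pairs of groups, no variance trend, weights per heart and leaving out each heart. The number of genes called was 1 (PLAU) instead of 0 with weights per heart in both comparisons with NRP+SCS 2h and in the test of any difference, where calls over all genes went from 3 to 60, 6 to 94 and 12 to 124 (1.05% of genes). It ranged from 0 to 1 when each heart was left out in the comparison of NRP+HOPE 24h with NRP+SCS 2h, with 1 without pig 27 (12 over all genes), for which the cause was not tested. The log2 fold change of PLAU ranged from 1.38 to 2.25 (limma adjusted p 0.0299 to 0.698) and from 1.05 to 1.64 (limma adjusted p 0.0221 to 0.965). Of 429 alternative log2 fold changes of the 8 genes, 407 kept the direction and 22 did not. Many of the 407 were bound to keep it. Other filters, pairs of groups, no variance trend and leaving out a heart of the group not compared cannot alter the log2 fold change of a gene.

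For PROCR, the difference of No NRP+HOPE 2h from NRP+SCS 2h was 0.247 with weights per heart, 0.0299 with median-of-ratios and 0.0307 with quantile scaling, and VWF between the HOPE groups was 0.0212 with median-of-ratios scaling. With hearts left out in turn, log2 differences of NRP+HOPE 24h from NRP+SCS 2h ranged from -0.0243 to 0.35 (F3), -0.0392 to 0.67 (TFPI) and -0.11 to 0.38 (THBS1). Those of No NRP+HOPE 2h from NRP+SCS 2h ranged from -0.95 to 0.13 (F3), -0.28 to 0.37 (PLAT), -0.36 to 0.15 (PROCR), -0.15 to 0.29 (THBD) and -0.66 to 0.0740 (VWF), and VWF between the HOPE groups from -0.43 to 0.30. The ratio of F3 to TFPI ranged from -0.53 to 0.15, -0.41 to 0.72 and -0.84 to 0.29 (NRP+HOPE 24h from NRP+SCS 2h, then No NRP+HOPE 2h from NRP+SCS 2h, then between the HOPE groups; -0.61, 0.76 and -1.37 with the pseudocount of 0.1) and THBD to PROCR from -0.37 to 0.0829 in the first comparison. PLAU to HBB ranged from -0.42 to 0.0509 in the second comparison, and PLAU to TFPI2 from -0.0016 to 0.78, -0.0041 to 0.30 and -0.11 to 0.68. Over endothelial markers, the ranges were -0.53 to 0.10 (PROCR, first comparison), -0.0372 to 0.70 (PLAT), -0.0029 to 0.48 (PROCR), -0.61 to 0.18 (TFPI) and -0.33 to 0.0847 (VWF) in the second, and -0.0049 to 0.41 (VWF) between the HOPE groups. With that pseudocount, TFPI differed by 0.76, -1.31 and 2.07 in these comparisons. Members at an unadjusted p under 0.05 numbered 1 to 3, 1 to 2 and 1 to 3 with hearts left out. Over all genes tested, 378 to 1257, 485 to 1111 and 485 to 1118 were at that level. TFPI gave no value with a mean of at least 5 TPM. No paired analysis was possible because pig numbers are not shared between groups.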

Other observations

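With the HOPE groups averaged and set against NRP+SCS 2h, a contrast added after the values were seen, the log2 fold change of PLAU was 1.56 (SE 0.34; limma adjusted p 0.207), that of TFPI2 was 1.27 (SE 0.34; limma adjusted p 0.424) and that of HBB was 1.40 (SE 0.45; limma adjusted p 0.612). For PLAU, this contrast was called with weights per heart (limma adjusted p 0.0125) and without pig 27 (limma adjusted p 0.0455). Calls over all genes in it went from 5 to 83 with the weights and to 7 without pig 27.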
